A study of Rattus norvegicus with 30 samples.

Results

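The genes described here were the ligands and co-receptors through which blood vessels are built and remodelled: the vascular endothelial growth factors Vegfa, Vegfb, Vegfc and Pgf, the angiopoietins Angpt1 and Angpt2, the angiopoietin-like proteins Angptl2 and Angptl4, and the neuropilins Nrp1 and Nrp2. They were taken from a list of names that used no threshold on their values but was drawn up with earlier results of these data known, and all 10 were present among the 13124 genes listed. All 10 also passed the expression filter, which left 12558 genes. RNA was sequenced from the plantaris tendons of 30 male Sprague Dawley rats, 3 months old at the start of the study. The question was how tenotomy and repair, and inhibition of the prostaglandin D2 synthase HPGDS with GSK2894631A, altered the tendon transcriptome. The 3 control tendons came from rats with neither surgery nor compound. The repaired tendons were taken 7 days (7D) or 21 days (21D) after the tendon had been cut and sutured, from rats gavaged 2 times a day with GSK2894631A at 0, 2 or 6 mg/kg. There were 5, 4 and 3 tendons at 7D and 5 tendons for each dose at 21D. The 0 mg/kg rats had the surgery without the compound. The right plantaris tendon was cut out between the myotendinous junction and the calcaneus, with the aim of leaving out muscle and bone. Skeletal muscle genes were still present in the counts, as given below, and how that RNA came to be there was not tested. Each library held 1 tendon, so fewer cells of a type and less RNA per cell cannot be told apart.

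The VEGF ligands are secreted proteins that bind receptor tyrosine kinases on endothelial cells, with Vegfa the main signal for sprouting, Vegfc acting mostly on lymphatic vessels, and Vegfb and Pgf binding the receptor Flt1. The angiopoietins act on the receptor Tek, where Angpt1 stabilises vessels and Angpt2 competes with it and loosens them. Neuropilins are transmembrane co-receptors that bind VEGFs as well as class 3 semaphorins. Tendon is a poorly vascularised tissue, and vessels grow into it after injury.

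Levels are given as CPM, the counts of a gene per 1e+06 counts of its library, with library sizes scaled by TMM, a method that sets them so that most genes do not differ. They were compared between tendons for 1 gene at a time and not between genes, since transcript lengths were not used. A gene was called higher or lower where the quasi-likelihood test of edgeR gave a p under 0.05 after Benjamini-Hochberg adjustment over the 12558 genes. Total counts on the listed genes ran from 12405741 to 49909374 per tendon, and every gene described here had at least 77 counts in every tendon. P-values measure the spread between these tendons, and all 6 comparisons with controls share the same 3 control tendons.

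The control libraries differed from the repaired ones in composition, which touches every comparison with controls. The 24 of 29 skeletal muscle genes found in the table took 18.6% to 25.8% of control counts, against 0.164% to 1.23% at 7D 0 mg/kg, 0.00988% to 0.0119% at 7D 2 mg/kg, 0.0104% to 0.0124% at 7D 6 mg/kg, 0.0638% to 7.58% at 21D 0 mg/kg, 1.15% to 3.08% at 21D 2 mg/kg and 0.311% to 9.08% at 21D 6 mg/kg. The part of muscle RNA in the differences from control was examined by removing the muscle genes before scaling and by adding their share to the model. Removal touched only those 24 genes, and left 4361 higher and 4569 lower calls of 12534 genes at 7D 0 mg/kg. The fit with the share, given with the muscle values near the end, is limited because control and repaired shares do not overlap. Marker shares here and below are percentages of counts without TMM scaling. The 9 macrophage markers took 0.0273% to 0.14% of control counts and 0.238% to 0.542% at 7D 0 mg/kg. The 9 of 12 endothelial markers in the table took 0.0186% to 0.0461% of control counts and 0.0701% to 0.111% at 7D 0 mg/kg. With scaling, 7 of the 9 macrophage and 4 of the 9 endothelial markers were called higher there, against 35.8% of all genes, and 0 lower. Their median log2 fold changes were 1.28 and 0.60. All 8 of the 9 listed tendon genes that were in the table were detected in the control tendons, where they took 0.548% to 2.73% of counts. Scaling by library size alone moved the median log2 fold change of all genes against control from 0.05 to 0.64 at 7D 0 mg/kg, and the calls from 4493 higher and 4473 lower to 7474 higher and 2418 lower.

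After 7 days without compound, 6 of the 10 genes were above their control level and 3 were below it. Vegfc, Angpt2, Angptl2, Angptl4, Nrp1 and Nrp2 rose, Vegfa, Vegfb and Angpt1 fell, and Pgf did not pass the test. Over all genes tested in that comparison 35.8% were called higher and 35.6% lower, so most genes of any kind were called. The median log2 fold change of the 10 genes was 0.82, against 0.05 over all genes. The plot of every tendon and the plot of the differences from control show the same split between genes that rose and genes that fell.

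**Figure D1:**
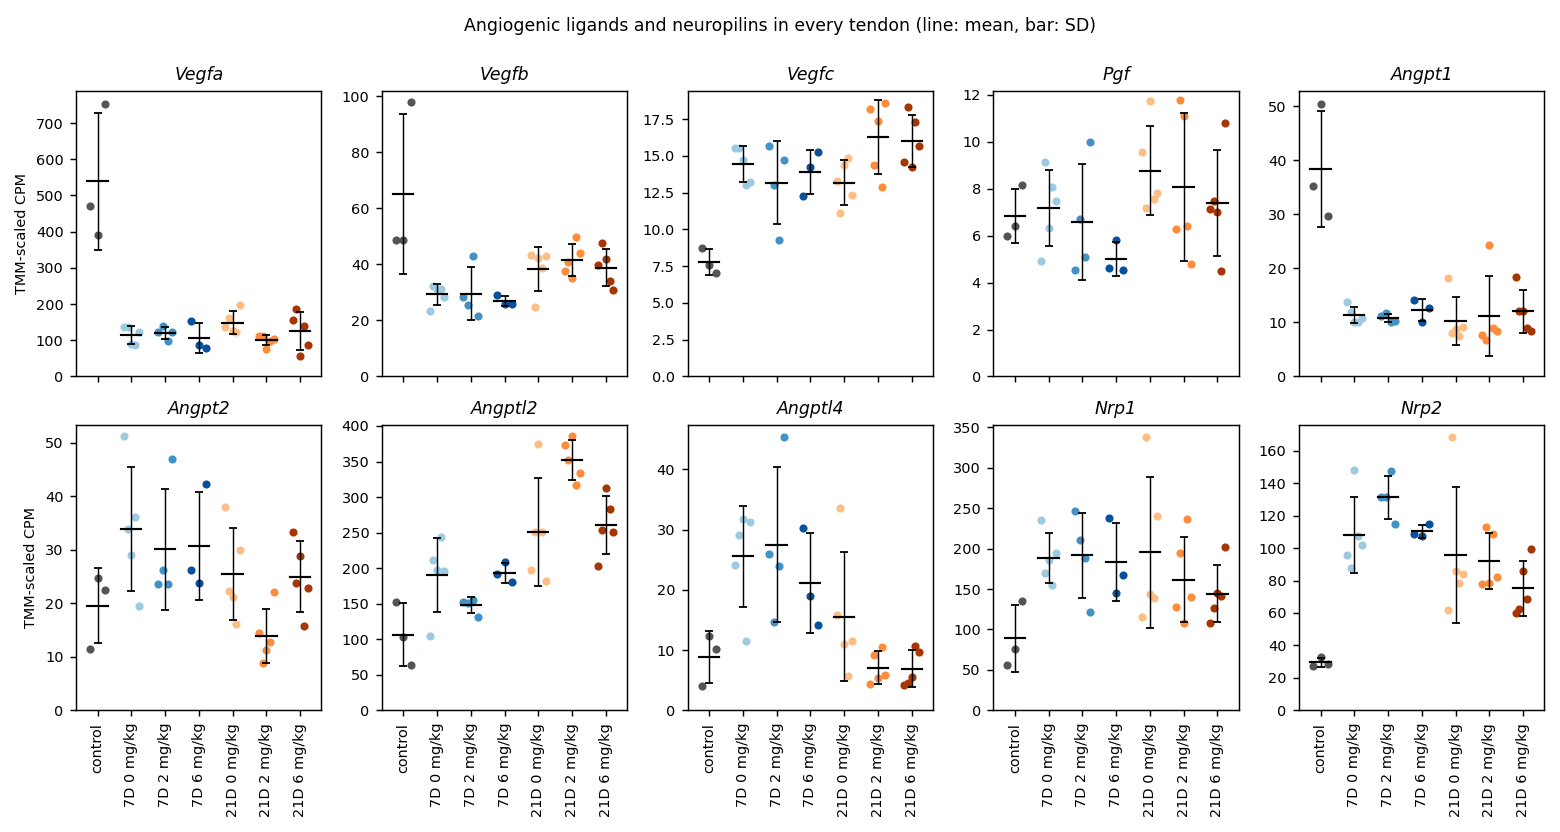
Each panel plots 1 gene, with its TMM-scaled CPM in each tendon on the vertical axis and the 7 groups on the horizontal axis, the line marking the group mean and the bar its SD. All repaired tendons lie below the controls for Vegfa (at most 198 CPM against at least 391 CPM) and above them for Nrp2 (at least 59.7 CPM against at most 32.7 CPM), while Pgf overlaps the controls in every repaired group but 7D 6 mg/kg.

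**Figure D2:**
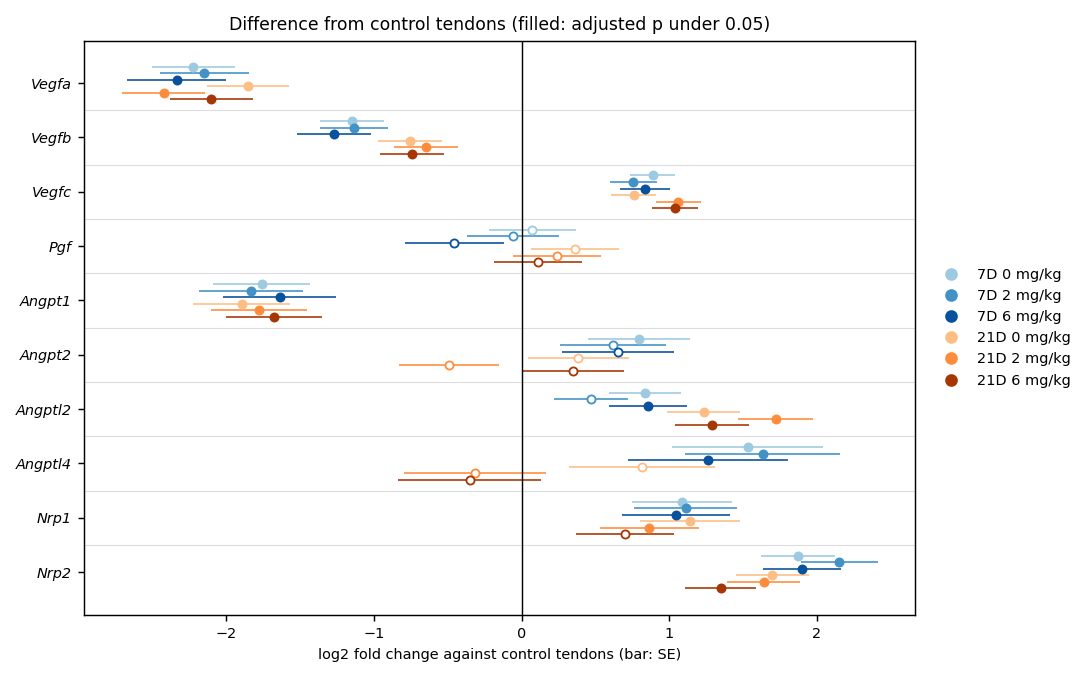
Log2 fold change against the 3 control tendons (horizontal axis, bars are SE) for the 10 genes in each of the 6 repaired groups, with filled points where the adjusted p was under 0.05. Vegfa, Vegfb and Angpt1 lie left of 0 and Vegfc, Angptl2 and the neuropilins right of 0 in all 6 groups, while Angpt2 and Angptl4 are on different sides of 0 in different groups.

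Vegfa, the ligand that drives endothelial growth and vessel permeability, had the largest difference from control of the 10 genes at 7D 0 mg/kg. It was 472, 391 and 753 CPM in the 3 control tendons, and 136, 138, 90.5, 87.7 and 124 CPM in the 5 tendons at 7D 0 mg/kg. The means were 539 ± 190 CPM (SD, n = 3) and 115 ± 24.3 CPM (n = 5), a log2 fold change of -2.23 (SE 0.281, adjusted p = 1.75e-07 by edgeR), or 4.68-fold lower. The 21D 0 mg/kg tendons held 138, 160, 126, 124 and 198 CPM, with a log2 fold change of -1.85 (SE 0.280). No repaired tendon of any group, which ranged from 57.6 to 198 CPM, reached the lowest control. The control tendon with the most Vegfa was also the one with the largest muscle share, 25.8%.

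Vegfb, which has been linked mostly to fatty acid handling and survival in muscle and heart, fell less. Its levels were 48.8, 48.6 and 97.9 CPM in controls and 23.4, 32.4, 31.2, 31.1 and 28.2 CPM at 7D 0 mg/kg, a log2 fold change of -1.15 (SE 0.216). The groups did not overlap at 7D. Later, at 21D 0 mg/kg, it was 43.4, 24.8, 42.3, 38.7 and 43.0 CPM, all still below the controls, with a log2 fold change of -0.76 (SE 0.217) and an adjusted p of 0.00367 in edgeR's test. That call rested on the highest control: without control replicate 4 the log2 fold change was -0.39 (adjusted p = 0.114), and with library size alone -0.14 (adjusted p = 0.503). The same held for 21D 2 mg/kg (-0.30 without that tendon) and 21D 6 mg/kg (-0.37).

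Vegfc, the ligand of lymphatic growth, moved the other way. It was 8.77, 7.57 and 7.02 CPM in the controls and 15.6, 15.6, 14.7, 13.03 and 13.2 CPM at 7D 0 mg/kg. The log2 fold change was 0.89 (SE 0.154, adjusted p = 1.68e-05 by edgeR), 1.85-fold higher. Every one of the 27 repaired tendons, from 9.28 to 18.6 CPM, was above the highest control. The fold changes at the other time and doses lay between 0.76 and 1.06 on the log2 scale. Markers of lymphatic endothelium moved both ways at 7D 0 mg/kg, with 1 of 5 higher and 2 lower, against 35.8% and 35.6% of all genes. Their median log2 fold change was -0.58. Without scaling, they took 0.0307% to 0.0636% of control counts and 0.0407% to 0.0796% at 7D 0 mg/kg. Their part in the Vegfc values was not tested.

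Pgf, placental growth factor, was low in all groups. Controls held 5.99, 6.41 and 8.16 CPM and 7D 0 mg/kg tendons 4.93, 9.12, 6.32, 8.08 and 7.46 CPM. The log2 fold change was 0.07 with a 95% interval of -0.54 to 0.68. In the other 5 comparisons with controls it lay between -0.46 (7D 6 mg/kg) and 0.36 (21D 0 mg/kg), with adjusted p-values from 0.228 to 0.877 in edgeR's test. With library size as the only scaling it was called higher in 3 of the 6 comparisons, which were 7D 0 mg/kg (0.68), 21D 0 mg/kg (0.94) and 21D 2 mg/kg (0.79), and changed sign at 7D 2 and 6 mg/kg. The median of all genes in those 3 comparisons was 0.64, 0.59 and 0.54 under that scaling. It called 7474, 7267 and 6934 of all 12558 genes higher.

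Angpt1, the agonist of Tek that keeps vessels quiescent, fell. It was 35.2, 50.5 and 29.7 CPM in controls and 13.7, 12.02, 10.1, 10.05 and 10.9 CPM at 7D 0 mg/kg, a log2 fold change of -1.76 (SE 0.328, adjusted p = 3.9e-05 by edgeR). At 21D 0 mg/kg the values were 18.2, 8.11, 8.71, 7.54 and 9.13 CPM. All repaired tendons, from 6.66 to 24.3 CPM, lay below the lowest control, and the log2 fold changes at the 6 times and doses ran from -1.90 to -1.64.

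Angpt2, its antagonist in most settings, was less settled. Controls held 11.55, 24.8 and 22.4 CPM and 7D 0 mg/kg tendons 51.2, 33.9, 28.99, 36.2 and 19.5 CPM. The groups overlapped, and the log2 fold change of 0.79 (SE 0.348) passed the test narrowly, with an adjusted p of 0.0439 by edgeR. The call was lost without control replicate 2 (0.45, adjusted p = 0.296), without control replicate 4, and without 7D 0 mg/kg replicates 1, 2 or 4. It also failed under 4 of 9 other settings, and it was not called in the other 5 repaired groups, whose log2 fold changes ran from -0.49 (21D 2 mg/kg) to 0.66 (7D 6 mg/kg).

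Angptl2, a secreted glycoprotein of the angiopoietin-like family associated with inflammation and matrix remodelling, rose and was highest at 21D. It was 152, 103 and 64.1 CPM in controls, and 104, 212, 198, 244 and 196 CPM at 7D 0 mg/kg, where only replicate 1 fell among the controls. The log2 fold change was 0.84 (SE 0.244, adjusted p = 0.00362 by edgeR), and without control replicate 4 it was 0.52 (adjusted p = 0.0655). Its levels at 21D 0 mg/kg were 197, 251, 374, 250.4 and 182 CPM, all above the controls, with a log2 fold change of 1.23 (SE 0.248). The highest group mean was 352 ± 27.7 CPM (SD, n = 5) at 21D 2 mg/kg, a log2 fold change of 1.72 against control.

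Angptl4, an inhibitor of lipoprotein lipase that is also induced in hypoxia, was high at 7D. Controls held 4.05, 12.4 and 10.1 CPM and 7D 0 mg/kg tendons 24.1, 29.1, 31.8, 11.6 and 31.3 CPM, with only replicate 4 inside the control range. The log2 fold change was 1.53 (SE 0.509, adjusted p = 0.00948 by edgeR), or 1.11 (adjusted p = 0.0779) without control replicate 2. The spread was wide at 21D 0 mg/kg, with 15.8, 33.5, 10.95, 5.77 and 11.6 CPM, and the difference from control (0.81, adjusted p = 0.15) was not called. The 8 adipocyte markers took 0.0275% to 0.055% of control counts, 0.0505% to 0.121% at 7D 0 mg/kg, 0.0607% to 0.281% at 7D 2 mg/kg and 0.0971% to 0.239% at 7D 6 mg/kg, but 0.0178% to 0.0548% at 21D 2 mg/kg. Their part in the Angptl4 values was not tested.

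The starts of Vegfa and Angptl4 are shown because these genes moved furthest down and were among those that moved furthest up at 7D. RefSeq windows of 250 bases before to 50 bases after the start (build GRCr8) were matched for 8 of the 10 genes, all but Angpt1 and Angpt2. Both strands were searched for the hypoxia response core ACGTG, the GC box GGGCGG, the TATA box TATAAA and the AP-1 site TGANTCA, and matches are in capitals, which overlap where the TATA box was found on both strands. The Vegfa window with GC boxes lies at chr9:22452604-22452903 (+ strand) and the Angptl4 window at chr7:15258632-15258931 (- strand).
Vegfa: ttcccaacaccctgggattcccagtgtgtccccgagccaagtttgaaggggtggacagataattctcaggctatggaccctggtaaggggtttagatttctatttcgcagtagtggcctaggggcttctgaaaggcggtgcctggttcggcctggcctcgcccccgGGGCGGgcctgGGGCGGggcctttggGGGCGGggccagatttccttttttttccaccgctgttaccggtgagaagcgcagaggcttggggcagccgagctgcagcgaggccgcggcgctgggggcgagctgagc
Angptl4: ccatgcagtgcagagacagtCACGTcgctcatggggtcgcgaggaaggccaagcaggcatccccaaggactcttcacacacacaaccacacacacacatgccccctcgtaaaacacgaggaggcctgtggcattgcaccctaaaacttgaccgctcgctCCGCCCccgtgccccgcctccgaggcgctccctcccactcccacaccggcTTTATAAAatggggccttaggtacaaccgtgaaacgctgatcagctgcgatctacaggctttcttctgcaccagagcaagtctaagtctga
The Vegfa window held 3 GC boxes and no hypoxia core, and a further Vegfa window held none of the 4 motifs. Angptl4 was the only one of the 8 genes whose window held the hypoxia core or a TATA box. Of all 33469 windows in the table, 19.3% held the hypoxia core, 33.1% a GC box, 14.2% a TATA box and 7.33% an AP-1 site. Such matches are descriptions of the letters in these windows.

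Both neuropilins rose. Nrp1, the co-receptor for Vegfa and Sema3a, was 56.1, 75.7 and 135 CPM in controls and 236, 170.1, 186, 155 and 194 CPM at 7D 0 mg/kg, a log2 fold change of 1.08 (SE 0.338, adjusted p = 0.00611 by edgeR). The groups did not overlap, but without control replicate 2 the adjusted p was 0.0662. Nrp1 at 21D 0 mg/kg was 115, 338, 144, 139 and 241 CPM, which overlapped the controls, with a log2 fold change of 1.14. Nrp1 was not called at 21D 6 mg/kg (0.70, adjusted p = 0.0673).

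Nrp2, the co-receptor for Vegfc and Sema3f, had the clearest increase. It was 27.3, 32.7 and 28.6 CPM in controls and 96.0, 87.9, 148, 108 and 102 CPM at 7D 0 mg/kg, a log2 fold change of 1.87 (SE 0.249, adjusted p = 3.78e-07 by edgeR), or 3.66-fold. At 7D 2 mg/kg it was 131, 132, 147 and 115 CPM, and at 7D 6 mg/kg 108, 108 and 115 CPM. The 21D 0 mg/kg tendons held 62.0, 169, 86.0, 78.6 and 83.9 CPM. The 27 repaired tendons all exceeded the highest control, and the smallest increase was at 21D 6 mg/kg (1.35, SE 0.243).

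Tendon 2 of the 21D 0 mg/kg group stood apart. It had the highest Nrp1, Nrp2 and Angptl4 and the lowest Vegfb and Vegfc of its group, together with a muscle share of 0.0638% against 2.14% to 7.58% in the other 4 tendons and a macrophage share of 0.839% against 0.163% to 0.47%. The part of these shares in its values was not tested. Without it the log2 fold change of Angptl4 at 21D against 7D without compound was -1.21 (adjusted p = 0.0498 by edgeR), where it was -0.72 (adjusted p = 0.299) with it.

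Ratios of 2 genes within a tendon do not depend on library scaling and are given as descriptions. The ratio of Angpt2 to Angpt1 counts was 0.328, 0.491 and 0.756 in the controls, and from 1.79 to 3.73 at 7D 0 mg/kg. Angpt2 counts thus exceeded Angpt1 counts in all tendons of the 7D groups, of 21D 0 mg/kg and of 21D 6 mg/kg, while at 21D 2 mg/kg the ratio ran from 0.465 to 2.61. Transcript lengths were not used, so this does not rank the levels of the 2 genes, and only the change of a ratio between groups is described. The ratio of Vegfc to Vegfa rose from 0.00937 to 0.0194 in controls to 0.107 to 0.163 at 7D 0 mg/kg, and that of Pgf to Vegfa from 0.0109 to 0.0165 to 0.0365 to 0.0922. The ratio of Vegfb to Vegfa was 0.103 to 0.13 in controls and 0.173 to 0.354 at 7D 0 mg/kg, without overlap. The ratio of Nrp2 to Nrp1 was 0.213 to 0.487 in controls and 0.407 to 0.795 at 7D 0 mg/kg, which overlapped.

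**Figure D3:**
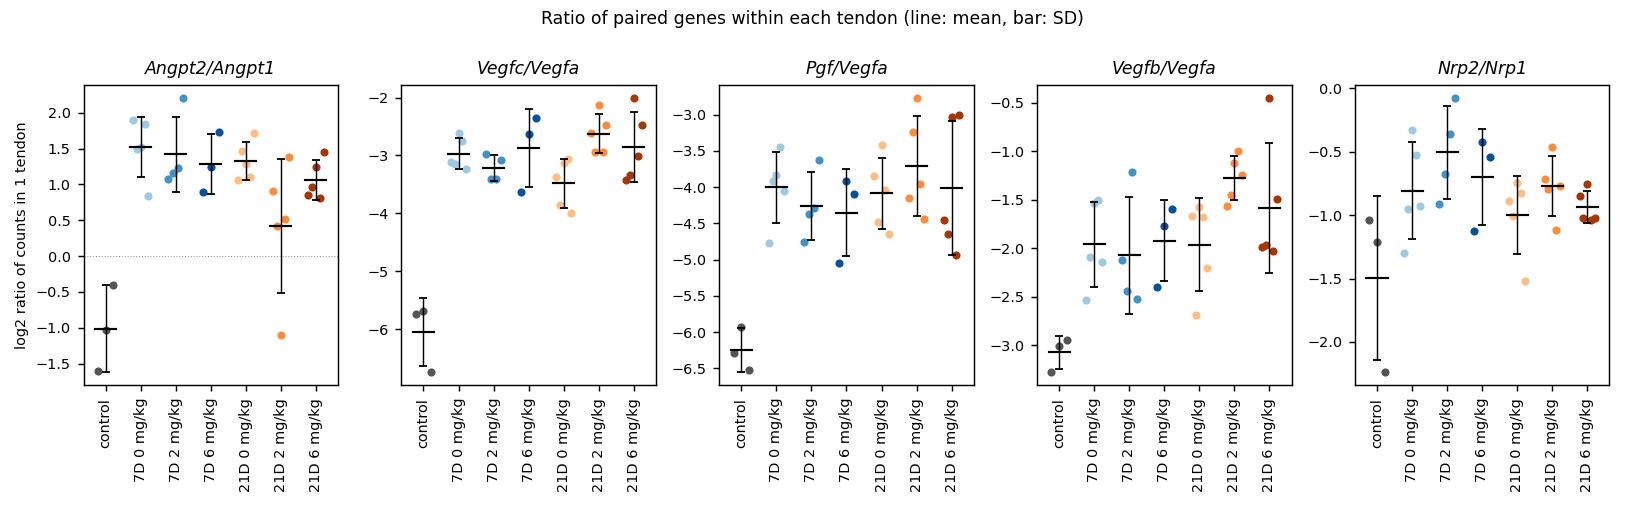
Log2 ratio of the counts of 2 genes within each tendon (vertical axis) in the 7 groups (horizontal axis), the line marking the mean and the bar the SD. Angpt2/Angpt1 is below 0 in all 3 controls and above 0 in every repaired tendon but 1 at 21D 2 mg/kg, and the 3 ratios to Vegfa do not overlap between controls and repaired tendons. A value of 0 marks equal counts and not equal levels, since transcript lengths were not used.

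The other 5 repaired groups were compared with the same 3 controls. At 7D 2 mg/kg 4 of the 10 genes were called higher (Vegfc, Angptl4, Nrp1 and Nrp2) and 3 lower, against 35.8% and 34.0% of all genes. At 7D 6 mg/kg 5 were higher (Angptl2 in addition) and 3 lower, against 34.1% and 33.8%. Vegfa, Vegfb and Angpt1 were the 3 lower genes in all 6 comparisons. The calls of Angptl4 at 7D 2 mg/kg (1.63, or 1.22 without control replicate 2, adjusted p = 0.0615 by edgeR) and of Angptl2 at 7D 6 mg/kg (0.86, or 0.56 without control replicate 4) each rested on 1 control. Angptl4 at 7D 6 mg/kg (1.26, adjusted p = 0.0428) lost its call without control replicate 2 or 4 or without 7D 6 mg/kg replicate 1 or 4, with adjusted p-values up to 0.199. Nrp1 lost its call without control replicate 2 at both doses, and at 6 mg/kg also without 7D 6 mg/kg replicate 1 (0.81).

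The 21D groups were set against the same controls. At 21D 0 mg/kg 4 were higher (Vegfc, Angptl2, Nrp1 and Nrp2) and 3 lower, against 32.2% and 33.7% of all genes. The 21D 2 mg/kg tendons had 4 higher and 3 lower calls of the same names, against 33.8% and 35.3%. At 21D 6 mg/kg 3 were higher (Vegfc, Angptl2 and Nrp2) and 3 lower, against 30.8% and 33.3%. Vegfc and Nrp2 were called higher in all 6 comparisons, also without each tendon in turn. Nrp1 at 21D 0 mg/kg lost its call without control replicate 2 (0.83, adjusted p = 0.0525 by edgeR), and at 21D 2 mg/kg without control replicate 2 or 3 or 21D 2 mg/kg replicate 4 (0.53 to 0.80).

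Comparing 21D with 7D at the same dose does not involve the controls. Without compound 0 of the 10 genes were called by edgeR and 1 had an unadjusted p under 0.05 (Vegfb, log2 fold change 0.39), and limma and DESeq2 also called 0, against 2.88% (up) and 2.47% (down) of all genes. At 2 mg/kg Angptl2 was called higher and Angpt2 and Angptl4 lower, against 7.09% and 5.98%. At 6 mg/kg Angptl4 alone was called, lower, against 8.54% higher and 4.55% lower.

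Angptl4 showed the time difference in both treated groups. At 2 mg/kg it was 26.0, 14.7, 24.0 and 45.3 CPM at 7D and 4.35, 9.22, 5.41, 10.6 and 5.92 CPM at 21D, a log2 fold change of -1.95 (SE 0.442, adjusted p = 0.00433 by edgeR). At 6 mg/kg it was 30.3, 19.1 and 14.2 CPM at 7D and 4.19, 4.49, 5.46, 10.6 and 9.75 CPM at 21D, -1.62 (SE 0.467, adjusted p = 0.0228). Neither pair of groups overlapped. The call at 6 mg/kg was lost without 7D replicate 1 or 4 or without 21D replicate 1 or 2, with adjusted p-values up to 0.15. Muscle shares were at most 0.0124% in these 7D groups and at least 0.311% at 21D, and with the muscle share in the model the log2 fold changes were -0.64 (adjusted p = 0.533) and -0.27 (adjusted p = 0.885).

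Angptl2 at 2 mg/kg went from 153, 152, 155 and 131 CPM at 7D to 373, 352, 385, 317 and 334 CPM at 21D, a log2 fold change of 1.25 (SE 0.224, adjusted p = 0.000618 by edgeR). It was called under all 9 other settings and without each of the 9 tendons in turn. Angpt2 at 2 mg/kg was 23.6, 26.2, 23.6 and 47.0 CPM at 7D and 14.5, 8.87, 11.3, 12.8 and 22.2 CPM at 21D, a log2 fold change of -1.11 (SE 0.310, adjusted p = 0.0184). Without 7D 2 mg/kg replicate 5 it was -0.82 (adjusted p = 0.119). Whether these time differences depended on dose was tested as an interaction, and 0 of the 10 genes were called by edgeR (smallest adjusted p = 0.445, for Angptl2; 1 had an unadjusted p under 0.05), against 0.390% of all genes. The differences seen at 2 or 6 mg/kg were therefore not shown to differ from those without compound.

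The doses of GSK2894631A were compared at each time. At 7D 0 of the 10 genes were called over the 3 doses by edgeR, with 0 at an unadjusted p under 0.05 and a smallest adjusted p of 0.663, against 2.05% of all genes. Over the whole table, 2 mg/kg against 0 mg/kg gave 0.908% of calls upward and 1.45% downward, and 6 mg/kg gave 0% and 0.390%. The largest log2 difference of the 10 genes at 7D 2 mg/kg was -0.37 for Angptl2 (95% interval -0.82 to 0.08), and at 7D 6 mg/kg -0.53 for Pgf (-1.15 to 0.09). The muscle share was lower in all tendons of both treated groups than in the 0 mg/kg tendons at 7D, so dose and muscle share moved together there. With the muscle share in the model Nrp2 was called lower at both doses, by -0.57 (adjusted p = 0.0351 by edgeR) and -0.80 (adjusted p = 0.00947). The reported fit gave 0.28 and 0.03, and the muscle shares of the groups compared did not overlap. With the share in the model, 774 of the 12558 genes were called higher and 467 lower at 2 mg/kg. At 6 mg/kg these counts were 375 and 165.

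At 21D 0 of the 10 genes were called over the 3 doses, with a smallest adjusted p of 0.321 by edgeR, and 0% of all genes were called. At 21D 4 of the 10 (Vegfc, Angpt2, Angptl2 and Angptl4) had an unadjusted p under 0.05. Against 21D 0 mg/kg, 5 genes were at that unadjusted level for 2 mg/kg and 2 for 6 mg/kg. After adjustment, 0% of all genes were called in either direction at either dose. The share of all genes at that unadjusted level was not counted, so these numbers stand without a background. limma and DESeq2 also called 0 of the 10 in each dose comparison.

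These uncalled differences are given with their intervals. Angptl4 was lower at both doses, by -1.13 on the log2 scale (95% interval -1.99 to -0.27) at 2 mg/kg and -1.17 (-2.03 to -0.30) at 6 mg/kg. The adjusted p-values were 0.463 and 0.741 by edgeR, and leaving out single tendons brought the differences to as little as -0.64 and -0.67. Both comparisons share 21D 0 mg/kg replicate 2, with 33.5 CPM against 5.77 to 15.8 CPM in the others of its group. Angpt2 differed by -0.88 (-1.48 to -0.27) at 2 mg/kg and by -0.04 (-0.64 to 0.56) at 6 mg/kg. Vegfa at 21D 2 mg/kg was 111, 111, 76.1, 99.1 and 104 CPM, below all 5 tendons at 21D 0 mg/kg, a log2 difference of -0.57 (-1.08 to -0.06, adjusted p = 0.537 by edgeR). Vegfc was higher by 0.30 and 0.28, and Angptl2 by 0.49 at 2 mg/kg and 0.05 at 6 mg/kg. Endothelial markers took 0.0351% to 0.0583% of counts at 21D 2 mg/kg and 0.0527% to 0.116% at 21D 0 mg/kg, and their part in the Angpt2 value was not tested.

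The receptors of these ligands were examined next. Of 6 tested at 7D 0 mg/kg, 2 were higher than in controls and 0 lower: Tie1, the orphan partner of Tek, by 1.08 on the log2 scale (SE 0.25, adjusted p = 0.000481 by edgeR) and Tek, the angiopoietin receptor, by 0.79 (adjusted p = 0.0185). The share of all genes called higher there was 35.8%. Tie1 was called without each tendon in turn, while Tek was not called without control replicate 2 (0.37) or 4, and 1 of the 6 was called in a fit of these groups alone. With library size only, 5 of the 6 were called higher at 7D 0 mg/kg and 5 at 21D 0 mg/kg. That scaling called 7474 and 7267 of all 12558 genes higher in the same comparisons. The VEGF receptors Flt1 (0.09), Kdr (0.48) and Flt4 (0.11) and the phosphatase Ptprb (0.66) were not called. At 21D 0 mg/kg 0 of the 6 were called, or 1 without control replicate 3 or 4, against 32.2% higher and 33.7% lower of all genes. Tie1 was at 0.48 there (adjusted p = 0.0852 by edgeR). At 21D 2 mg/kg Kdr, the main signalling receptor of Vegfa, was lower than in controls (-0.90, adjusted p = 0.0234 by edgeR). That call was lost without control replicate 3 or 4 or 21D 2 mg/kg replicate 2 or 4 (adjusted p up to 0.372). In the same comparison 4 of the 9 endothelial markers were also lower, against 35.3% of all genes. These directions hold with TMM scaling. Without scaling, the endothelial markers took 0.0351% to 0.0583% of counts at 21D 2 mg/kg and 0.0186% to 0.0461% in controls. The 6 receptors took 0.0257% to 0.0334% and 0.0131% to 0.0325%.

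The neuropilins signal together with plexins and class 3 semaphorins. Of 12 plexins and class 3 semaphorins tested at 7D 0 mg/kg, 4 were higher and 1 lower, against 35.8% and 35.6% of all genes, and without control replicate 4 the counts were 4 and 4. Plxna1 (1.82) and Plxnd1 (1.67), signalling partners of the neuropilins, and Sema3f (1.43), a ligand of Nrp2, rose, while Sema3b fell by 0.66. The first 3 of these were called without each tendon in turn, and Sema3b was not called without control replicate 2 (-0.22). At 21D 0 mg/kg 5 of the 12 were higher and 1 lower, against 32.2% and 33.7% of all genes. Plxna1, Plxnd1 and Sema3f were among the higher genes. The lower gene was Sema3a, a ligand of Nrp1 (-1.20, adjusted p = 0.0194 by edgeR, or -0.14 and not called without control replicate 2). The median of these 12 genes at 7D 0 mg/kg was 0.22, against 0.05 over all genes.

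**Figure D4:**
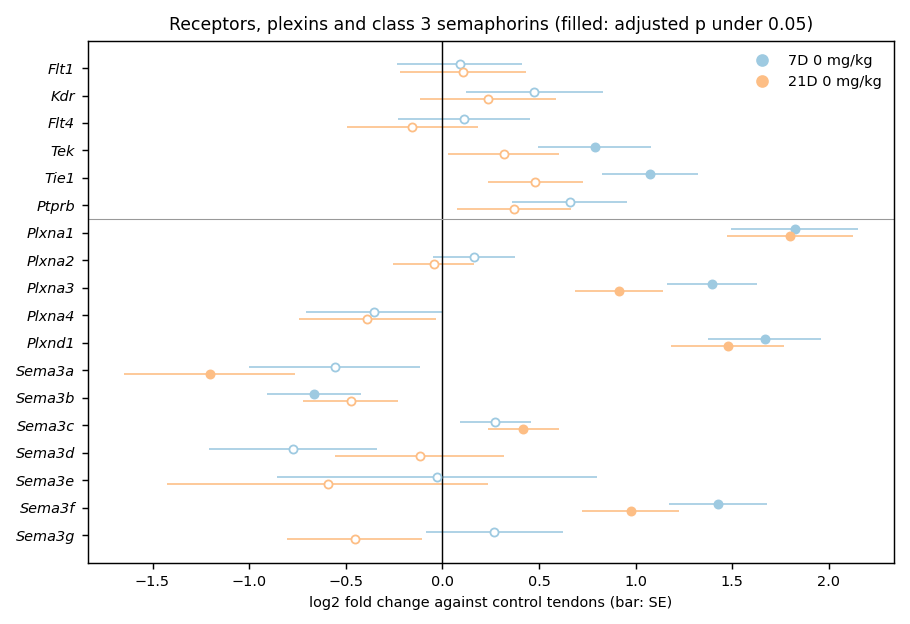
Log2 fold change against control tendons (horizontal axis, bars are SE) at 7D and 21D without compound for 6 receptors, above the line, and 12 plexins and class 3 semaphorins, below it, with filled points where the adjusted p was under 0.05. Plxna1, Plxnd1 and Sema3f are filled and right of 0 at both times, and Flt1, Kdr and Flt4 are open at both.

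The remaining members of the ligand families were split as well. Of 5 tested at 7D 0 mg/kg, 4 were higher and 1 lower, against 35.8% and 35.6% of all genes. Vegfd, the other lymphatic VEGF, rose from 3.05 to 35.4 CPM. Angpt4 rose by 2.00 on the log2 scale and Angptl1 by 1.47. Angptl8 was barely detected in controls, with at most 9 counts in a tendon, and its mean went from 0.136 to 2.10 CPM. Angptl7 fell from 939 ± 1141 CPM (SD, n = 3) to 24.8 ± 13.8 CPM (n = 5). Its log2 fold change was -5.24 (adjusted p = 1.81e-06 by edgeR), or -3.60 (and still called) without control replicate 2, the control that carries most of the mean.

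Among other angiogenic factors 6 of 10 tested were higher and 2 lower at 7D 0 mg/kg, against 35.8% and 35.6% of all genes. Hgf (2.62), Edn1 (1.58, or 1.14 to 2.69 without single tendons) and Adm (1.47), secreted factors that act on vessels, were among those that rose, and Esm1, a proteoglycan of activated endothelium, fell from 77.2 to 2.45 CPM (-4.98), as did Fgf1 (-0.92), which was not called without control replicate 4. Of 7 angiogenesis inhibitors, 5 were higher and 1 lower, against the same shares of all genes. Thbs2 rose by 2.65, Thbs1 by 2.59 and Col18a1, the precursor of endostatin, by 2.47, while Tnmd, a membrane protein of tendon cells, fell by 1.43 and was not called without control replicate 2 (-0.99).

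Genes of the response to low oxygen, of which Vegfa and Angptl4 are known targets, did not move one way. Of 16 tested at 7D 0 mg/kg, 5 were higher and 7 lower, against 35.8% and 35.6% of all genes. Slc2a1 (2.68), a glucose transporter, Hif1a (1.80) and Ndrg1 (1.18) were highest, and Egln3 (-3.27), a prolyl hydroxylase, Ldha (-2.83) and Bnip3 (-2.72) were lowest. Ndrg1 lost its call without control replicate 2 or 4 or 7D 0 mg/kg replicate 1 (adjusted p up to 0.0976 by edgeR). All 24 muscle genes were lower in the same comparison, and their part in the values of these 16 genes was not tested. The median of the 16 genes was -0.26.

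The levels of several of the 10 genes followed the muscle share across the 27 repaired tendons, described by Pearson's r of log2 CPM with log10 share. It was -0.78 for Nrp2, -0.66 for Angptl4, -0.40 for Nrp1, 0.69 for Vegfb, 0.54 for Angptl2, 0.42 for Vegfc, 0.36 for Pgf, 0.26 for Vegfa, -0.27 for Angpt2 and -0.02 for Angpt1. The tendons come from 6 groups, so r mixes differences between groups with those within them. With the log10 muscle share in the model, 1 gene (Vegfc) was called against control at 7D 2 mg/kg and 1 at 7D 6 mg/kg. Over all 12558 genes, that fit called 620 higher and 864 lower at 7D 2 mg/kg, and 660 and 890 at 7D 6 mg/kg. In that fit Angptl4 and Nrp1 took the opposite sign in both comparisons. The shares of these groups and of the controls do not overlap, so that fit extends the relation beyond the shares seen in either group. At 7D 0 mg/kg, Vegfa (-1.63), Vegfb (-0.70), Vegfc (1.10), Angpt1 (-1.45), Angpt2 (1.15) and Nrp2 (0.98) were called in that fit. Angptl2 (0.65), Angptl4 (0.52) and Nrp1 (0.39) were not. Over all genes 2786 were called higher and 3379 lower. The shares at 7D 0 mg/kg, 0.164% to 1.23%, do not overlap those of the controls either, so the same limit holds for these calls.

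**Figure D5:**
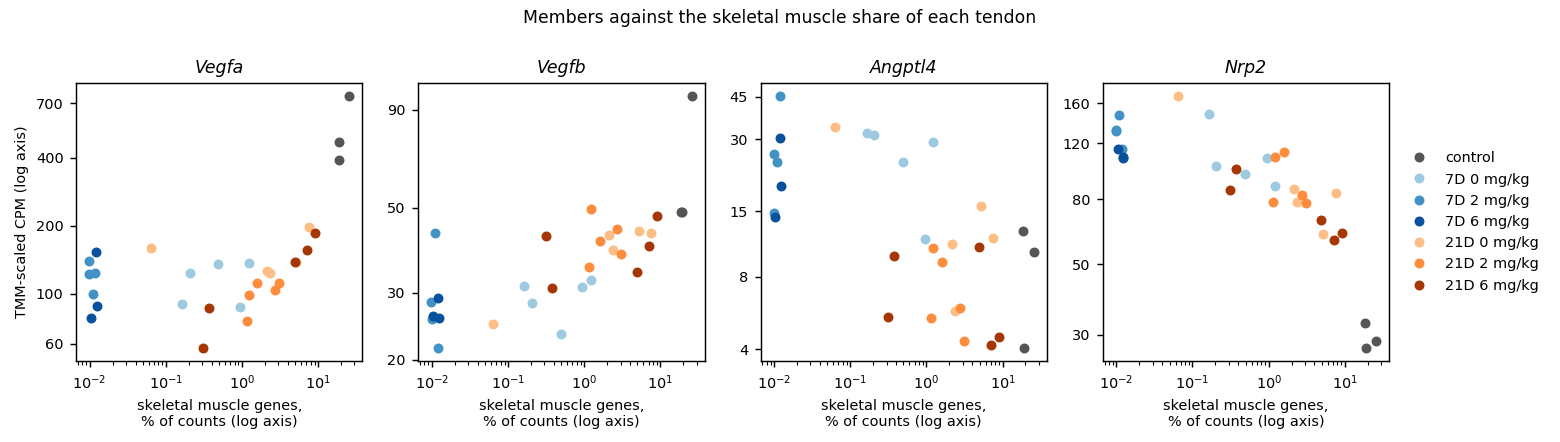
TMM-scaled CPM of Vegfa, Vegfb, Angptl4 and Nrp2 (vertical log axis) against the percent of counts on skeletal muscle genes (horizontal log axis), 1 point for each of the 30 tendons coloured by group. Controls, at 18.6% to 25.8%, lie apart from all repaired tendons, at most 9.08%, and among the repaired tendons Nrp2 and Angptl4 are lower and Vegfb higher where the muscle share is larger.

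Across all 30 tendons the genes whose log2 CPM was most like each of the 10 were listed by Pearson's r, as a description. These r include the difference between control and repaired tendons and were not computed within the repaired tendons alone. That can matter: r of Vegfa with Angpt1 was 0.65 over 30 tendons and -0.03 over the 27 repaired. For Nrp1 with Nrp2 it was 0.78 and 0.70. Vegfa was most like Ldha (0.957), Afg3l2 and Hspa9, the last a mitochondrial chaperone. Nrp1 was most like Cd300e (0.954), a receptor of monocytes, and Nrp2 most like Mboat1 and Tkt (both 0.953) and Blnk (0.949). Angptl2 was most like Limd1 (0.932), Adamts16 and the collagen cross-linking enzyme Loxl2 (0.919), and Vegfc most like Rspo2 (0.888). Angpt2 was most like an unnamed gene, Mall (0.881) and S1pr1 (0.871), the last a receptor of endothelial cells, and Vegfb like Pcbp4 (0.906), Angpt1 like Amd1 (0.856) and Angptl4 like Nabp1 (0.842). Pgf had no gene above 0.574.

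Among the 10 genes themselves, within the 27 repaired tendons, the largest r were 0.70 between Nrp1 and Nrp2, 0.68 between Angptl4 and Nrp2, and -0.73 between Angpt2 and Angptl2. Vegfa had an r between -0.30 and 0.21 with each of the other 9, and Pgf between -0.28 and 0.35.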

How the data were processed

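RNA from 30 plantaris tendons was sequenced as single-end reads. The authors trimmed reads with fastp, aligned them with STAR to rat genome rn6 and deposited raw counts of exon reads per Ensembl gene. Their second table holds their own fold changes and p-values, which were not used. From that table only gene names and widths in bases, listed by the authors among other annotation, were taken. The authors' methods exclude libraries on read quality in a way that would leave 4 tendons at 7D 6 mg/kg. The labels hold 3, and the labels were followed.

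The count analysis used edgeR 4.0.16 in R 4.3.3 (TMM scaling, quasi-likelihood test). All 30 tendons and 7 groups entered 1 fit, with genes kept where 1 or more groups had a mean CPM of 3 or higher. Benjamini-Hochberg adjustment ran over 12558 genes. CPM used TMM-scaled library sizes, and correlations used log2 CPM with a prior count of 2. Total counts ran from 12405741 to 49909374, so 3 counts equal 0.0561 to 0.245 CPM. Intervals are those of the fit. Counts were simulated for 12163 genes in the comparison of 7D 0 mg/kg with control. Only 100 genes were changed by 1 on the log2 scale and 100 by 2, and 61% and 85% of these were called. In the data 35.8% of genes were called higher and 35.6% lower, so these rates do not give the power of the reported test.

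Groups came from the labels. The 10 genes and all companion lists were chosen with earlier results of these data known. All 10 genes are named, with at most 6 genes of each companion list, those with the lowest and highest log2 fold change at 7D 0 mg/kg, and any receptor and the 3 most similar genes of each. Alternatives were RLE scaling, library size only, muscle genes removed before scaling, no filter, a fit of the compared groups alone, the muscle share as a covariate, a replicate block, limma-trend (limma 3.58.1), DESeq2 1.42.0, a prior count of 0.25 and each tendon left out. Libraries of a group differed by far more than sampling noise, so none was counted as a duplicate.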

Additional observations from a re-analysis of the deposited data

Results flagged for a closer look

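In groups of 4 or 5 tendons, 7 of 50 combinations of gene and group held 1 tendon set apart from the others by Dixon's test, where chance sets apart about 1 in 20. Vegfb was 24.84 CPM in 21D 0 mg/kg replicate 2, against 38.65 to 43.41 CPM in the other 4 tendons. Angpt1 was 18.16 CPM in 21D 0 mg/kg replicate 1 (others 7.543 to 9.132 CPM) and 24.32 CPM in 21D 2 mg/kg replicate 3 (others 6.663 to 8.907 CPM). Angpt2 was 47.05 CPM in 7D 2 mg/kg replicate 5, against 23.63 to 26.22 CPM. The same tendon had the lowest Angptl2 of its group, 131.2 CPM against 151.6 to 155.3 CPM. Angptl2 was 104.1 CPM in 7D 0 mg/kg replicate 1 (others 195.8 to 243.8 CPM), and Angptl4 was 11.56 CPM in 7D 0 mg/kg replicate 4 (others 24.09 to 31.75 CPM).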

How the results depend on the processing

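The number of the 10 genes called stayed within 1.5 times of the reported count under most alternatives. With the muscle share as a covariate it was 1 at 7D 2 mg/kg and 1 at 7D 6 mg/kg against control, 0 at 6 mg/kg for 21D against 7D, and 1 (Nrp2, lower) for 7D 2 mg/kg and 7D 6 mg/kg against 7D 0 mg/kg and over the 3 doses at 7D, groups whose muscle shares do not overlap. Fitting the compared groups alone gave 5 at 7D 6 mg/kg against control. Over all genes that fit called 3075 higher and 3391 lower of 12246, against 4283 and 4246 of 12558 in the reported fit. Leaving out 1 tendon gave 0 to 1 for 21D against 7D without compound and 0 to 1 at 6 mg/kg. The causes were not tested. Over all 12558 genes, the muscle covariate gave 98 higher and 148 lower calls at 6 mg/kg for 21D against 7D. Its counts over all genes against control and for each dose against 0 mg/kg at 7D are given above.

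Changes of sign with the muscle share as a covariate, on the log2 scale, were Angptl4 -0.33 and -0.68 and Nrp1 -0.25 and -0.30 at 7D 2 and 6 mg/kg against control, Nrp2 0.0569 for 21D against 7D without compound, and Nrp2 -0.57 and -0.80 for 7D 2 and 6 mg/kg against 7D 0 mg/kg. For 21D against 7D at 2 mg/kg they were Vegfb -0.10, Angpt1 -0.35, Nrp1 0.66 and Nrp2 0.66, and at 6 mg/kg Vegfa -0.63, Vegfb -0.0696, Vegfc -0.0912, Nrp1 0.56 and Nrp2 0.61. With library size only, Pgf was 0.52 and 0.15 at 7D 2 and 6 mg/kg, Angpt2 0.0358 and Angptl4 0.22 at 21D 2 mg/kg, and Angptl4 0.16 at 21D 6 mg/kg. The medians of all genes under that scaling were 0.61 and 0.63 at 7D and 0.54 and 0.51 at 21D for the same doses. limma-trend gave -0.0519 for Nrp1 (21D against 7D without compound) and -0.12 for Angpt1 (21D against 7D, 2 mg/kg). Leaving out 1 tendon gave ranges across 0 for Pgf at 7D 0 mg/kg (-0.0831 to 0.18), 7D 2 mg/kg (-0.33 to 0.086) and 21D 6 mg/kg (-0.0671 to 0.25), Angptl4 at 21D 2 mg/kg (-0.75 to 0.0608) and 21D 6 mg/kg (-0.76 to 0.00838), Nrp1 for 21D against 7D without compound (-0.24 to 0.20), Angpt1 for 21D against 7D at 2 mg/kg (-0.44 to 0.19) and 6 mg/kg (-0.24 to 0.0744), and Nrp2 for 7D 6 mg/kg against 7D 0 mg/kg (-0.0381 to 0.17). None of these was called in the reported fit but Angptl4 and Nrp1 at 7D.

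Replicate numbers did not pair the tendons: deviations from group means of same-numbered tendons had a mean correlation of 0.00735 over 76 pairs, against -0.000524 over 307 others. With a replicate block, Angpt2 at 7D 0 mg/kg (0.61, adjusted p = 0.0737 by edgeR) and Angptl4 at 7D 6 mg/kg (1.24, adjusted p = 0.0849) were not called, and Angptl2 at 7D 2 mg/kg (0.56, adjusted p = 0.0351) and Angpt2 at 21D 2 mg/kg (-0.73, adjusted p = 0.0335) were. Angpt1 for 21D against 7D at 2 mg/kg was -0.0900 under the block. Among single genes 64 calls were lost and 20 gained over all alternatives.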
